A study of Homo sapiens with 12 samples.

Results

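The regions described are the introns of 500 nt or longer whose retention could be measured in every library of a splicing table from HEK293T, a human kidney-derived cell line that takes up plasmids readily. An intron was kept when its length was at least 500 nt, its inclusion and exclusion reads together came to at least 20 in each of the 12 libraries, and its inclusion reads over the 12 libraries came to at least 24. These limits kept 17013 introns of 7759 genes, out of 192965 introns in the table, of which 147499 were 500 nt or longer. Under the same read limits, 11622 shorter introns were measured and serve as the comparison.

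The study expressed RNA-targeting splicing effectors in these cells with targeting and nontargeting guides. There were 6 groups of 2 biological replicates, sequenced as paired 150 nt reads from poly(A)-selected RNA taken 48 h after transfection with 200 ng of effector vector and 200 ng of guide vector. dCasRx, a CasRx protein with no cutting activity, was the control effector and was given a nontargeting guide (dCasRx_NT). dCasRx-RBM25, which carries RBM25 on dCasRx, was given the nontargeting guide (RBM25_NT), a guide for MAPT exon 10 (RBM25_MAPT) or a guide for CD46 exon 13 (RBM25_CD46). RBFOX1N-dCasRx-C, which carries parts of RBFOX1, was given the nontargeting guide (RBFOX1N_NT) or the MAPT guide (RBFOX1N_MAPT). All cells therefore held a dCasRx protein and a guide, no untransfected cells were analysed here, and the only control group had 2 libraries. In bulk RNA, a change in fewer cells and a smaller change in each cell cannot be told apart.

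Most introns are removed while the transcript is being made. U1 snRNP pairs with the 5′ splice site at the start of the intron and U2 snRNP with the branch point near its end. RBM25 is an RNA-binding protein that works with U1 snRNP, and RBFOX1 is a tissue-restricted splicing regulator that binds near alternative exons. A read that runs from exon into intron can come from a fully retained intron, from unfinished RNA, from another splice site inside the intron, or from a transcript that starts or ends there. The table counts such reads separately at the upstream end of the intron (its 5′ splice site), at the downstream end (its 3′ splice site) and in the middle. Percent retained is the mean of the reads at both ends as a share of that mean plus the reads of the spliced junction. The reads from the middle do not enter it. Their percentage is their share of themselves plus the same spliced reads, so it is separate only in the middle reads.

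The splice sites of introns on which the results below turn are printed here where an annotated GENCODE 29 exon runs over the site, which is the part of the intron sequence held in these files. Capitals mark the first or the last pair of intron bases. Each 5′ site holds 12 exon bases and 18 intron bases, and each 3′ site holds 24 intron bases and 6 exon bases. Positions are on hg38.
PRRT2, 5′ site, chr16:29812312-29812341, plus strand: gccggcgtcgagGTgagacccgggcagact
KMT5C, 3′ site, chr19:55341770-55341799, plus strand: actgcttttctccccattttgcAGatgaga
CNOT3, 3′ site, chr19:54142905-54142934, plus strand: ttcctctccaatctctcctagcAGcgtccg
CPT1C, 5′ site, chr19:49711950-49711979, plus strand: ttcctgacccagGTtggggcacagggaaag
CPT1C, 3′ site, chr19:49712712-49712741, plus strand: catgtgatgggctcctgtcctcAGgtccat
NFATC4, 5′ site, chr14:24376867-24376896, plus strand: cgctggaggaagGTgggtgtgggactgggg
NFATC4, 3′ site, chr14:24377614-24377643, plus strand: ctctcaactgcccctcctttacAGtgagtg
PABPN1, 5′ site, chr14:23324278-23324307, plus strand: tcgcgtctacagGTcaggatagatgggctg
MAT2A, 5′ site, chr2:85543023-85543052, plus strand: ggtcattgtcagGTaaagatggtaaagcct
UFD1L, 5′ site, chr22:19454731-19454760, minus strand: aaggttgaagagGTgagtgtatttccttgt
UFD1L, 3′ site, chr22:19450739-19450768, minus strand: atagtatcttctcttcaaacctAGgatgaa
CSTF3, 5′ site, chr11:33141649-33141678, minus strand: attgaagcagagGTtactattttattttat
PRRT2, KMT5C and CNOT3 rose in libraries labelled RBFOX1N, CPT1C, NFATC4, PABPN1 and MAT2A fell there, and UFD1L and CSTF3 rose with RBM25.

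Retention was low in most of these introns. Mean percent retained over the 12 libraries was under 5% in 10672 of the 17013 (62.7%), from 5 to 20% in 4326, from 20 to 50% in 905 and at least 50% in 1110 (6.52%). No spliced read was found for 437 introns, which stood at 100% in all 12 libraries. The median length was 1759 nt (quartiles 946 and 3605 nt), the longest was 593993 nt, and 120 members lay less than 10 nt above the length limit beside 128 introns up to 10 nt below it. No members shared a splice site, although 1 gene held up to 14 of them. The median member had 198 reads in a library, of which 5.68 were inclusion reads, so percentages near 0 rest on few reads. For 3112 members (18.3%), the 24 inclusion reads were reached only through the group with the most of them, which is why the main counts are also given below with no such minimum.

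The library totals ran from 32487927 to 53985468 gene counts. RBM25 had 1916448 to 2250851 counts in the RBM25 libraries and 6748 to 13142 in the others, which includes the RBM25 part of the effector. RBFOX1 had 0 to 6 counts in every library and so does not check the RBFOX1N label, and these libraries are called by their label throughout. All 9 marker genes listed for HEK293 cells were above 0 in every library, with a summed level of 1080 to 1327 CPM (counts scaled to library size). Of 14 markers listed for other cell types, 9 stayed under 1 CPM in all 12 libraries, and the list summed to 27.9 to 41.7.

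Across all 17013 introns, the replicates of a group differed in their median percent retained by about as much as the groups did. The medians were 2.68 and 2.74% in dCasRx_NT, 3.57 and 3.05% in RBM25_NT, 2.83 and 3.30% in RBM25_MAPT, 3.20 and 3.18% in RBM25_CD46, 2.41 and 3.41% in RBFOX1N_NT, and 2.90 and 2.54% in RBFOX1N_MAPT. All 6 RBM25 libraries were above both dCasRx_NT libraries, while the RBFOX1N_NT libraries lay on either side of them. Introns were tested one by one with a quasi-binomial model of inclusion and exclusion reads over all 12 libraries, with p-values adjusted by Benjamini-Hochberg over all 100386 splicing events of every type. An intron was called when the adjusted p was under 0.05 and the group means differed by at least 10 points. This test could be run on 16423 of the 17013 introns, because 590 had fewer than 24 spliced reads in all.

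Most of the long introns that rose in the libraries labelled RBFOX1N were at the start of their genes. Against dCasRx_NT, 192 long introns were higher in RBFOX1N_NT and 29 were lower, 1.35% of those tested, where 1.14% of all splicing events were called. Of the 192, 118 were the first intron of their transcript (61.5%), although first introns made up 16.9% of the long introns tested. Put as a share of each class, 4.26% of 2769 first introns were called higher, against 0.516% of 10666 internal introns and 0.369% of 2710 last introns. Among all events, 0.607% were called higher and 0.536% lower. Introns in the 5′ UTR numbered 75 of the 192 (39.1%, against 8.21% of those tested). An annotated transcript start lay inside 106 of the 192 (55.2%, against 34.1%) and an annotated transcript end inside 51 (26.6%, against 32.3%). Whether transcripts that start inside these introns gave the reads was not tested. Of 813 first introns under 500 nt, 5 were called higher (0.615%), close to the share of all events, beside 0.243% of internal and 0.330% of last introns of that length. Without the minimum of inclusion reads, 74 long introns were called higher, and 53 of them (71.6%) were first introns, against 11.5% of the 53444 tested. Leaving out a library moved the count but not the position: 98 were higher without dCasRx_NT replicate 1 (68 first introns), 79 without dCasRx_NT replicate 2 (54), 183 without RBFOX1N_NT replicate 1 (111) and 75 without RBFOX1N_NT replicate 2 (54).

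**Figure D1:**
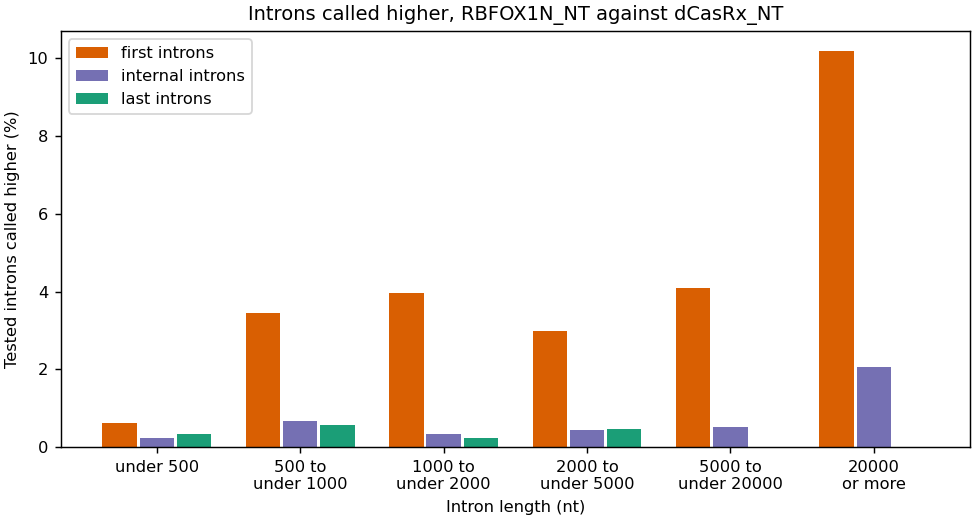
Share of tested introns called higher in RBFOX1N_NT than in dCasRx_NT (vertical axis, %) by intron length (horizontal axis, nt), for first, internal and last introns. First introns of 20000 nt or more have the tallest bar, at 10.2%, and first introns under 500 nt stand at 0.615%.

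Among first introns, the share called higher was 3.45% from 500 to under 1000 nt, 3.96% from 1000 to under 2000 nt, 2.98% from 2000 to under 5000 nt, 4.10% from 5000 to under 20000 nt and 10.2% (28 of 275) at 20000 nt or more. The median difference at the upstream junction, RBFOX1N_NT minus dCasRx_NT, was 0.35, 0.59, 1.12, 1.73 and 3.82 points in these 5 length classes, and it was -0.08 under 500 nt. At 20000 nt or more, 82.5% of first introns had a higher upstream percentage in RBFOX1N_NT, against 43.9% of first introns under 500 nt. RBM25_NT minus dCasRx_NT gave smaller medians over the same first introns, 0 points from 500 to under 1000 nt and 0.84 at 20000 nt or more. In last introns the RBFOX1N_NT median lay between -0.03 and 0.10 points in the 3 classes from 500 to under 5000 nt. At 20000 nt or more it was 0.46 (20 introns). In internal introns it went from -0.19 points from 500 to under 1000 nt to 0.62 at 20000 nt or more (145 introns). The rise with length was thus not confined to first introns, although for RBFOX1N_NT it was largest there. In RBM25_NT minus dCasRx_NT the internal median was 1.63 points at 20000 nt or more, above that of first introns. All these introns had passed the minimum of inclusion reads. These are descriptions of medians over introns, with no test.

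In first introns the libraries labelled RBFOX1N stood apart mainly at the upstream end, with smaller differences further in. Over the first introns tested, the median percentage at the upstream junction was 2.38 and 2.42% in dCasRx_NT, 2.74 to 2.83% in RBM25_NT, 2.44 to 2.90% in RBM25_MAPT, 2.92 to 3.09% in RBM25_CD46, 4.41 and 5.95% in RBFOX1N_NT, and 4.59 and 5.15% in RBFOX1N_MAPT. All 4 libraries labelled RBFOX1N lay above the other 8. At the downstream junction of the same introns the median was 0.978 to 1.60% in RBFOX1N_NT and 1.14 to 1.38% in RBFOX1N_MAPT, against 0.823 and 0.826% in dCasRx_NT, which all 4 exceeded, and 0.617 to 1.17% in the RBM25 libraries, which they overlapped. The share of these introns with at least 20% was higher in the libraries labelled RBFOX1N than in the other 8 in every readout, at 18 to 21% against 12.7 to 14.7% upstream, 5.55 to 6.97% against 4.81 to 5.40% in the middle and 9.89 to 11.6% against 8.26 to 9.56% downstream. With no minimum of inclusion reads, over 6447 first introns, the share with at least 20% at the upstream junction was 6.55 and 6.58% in dCasRx_NT, 6.73 to 7.49% in the RBM25 libraries and 8.90 to 10.3% in those labelled RBFOX1N, again without overlap. At the downstream junction this share was 5.23 to 5.94% in the libraries labelled RBFOX1N and 4.53 to 5.09% in the others. In internal introns the upstream median of RBFOX1N_NT was 1.60 and 2.53%, on either side of the 2.13 and 2.17% of dCasRx_NT. A comparison of 2 libraries with 2 by exact permutation cannot give a p below 0.333, so these library medians carry no test.

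**Figure D2:**
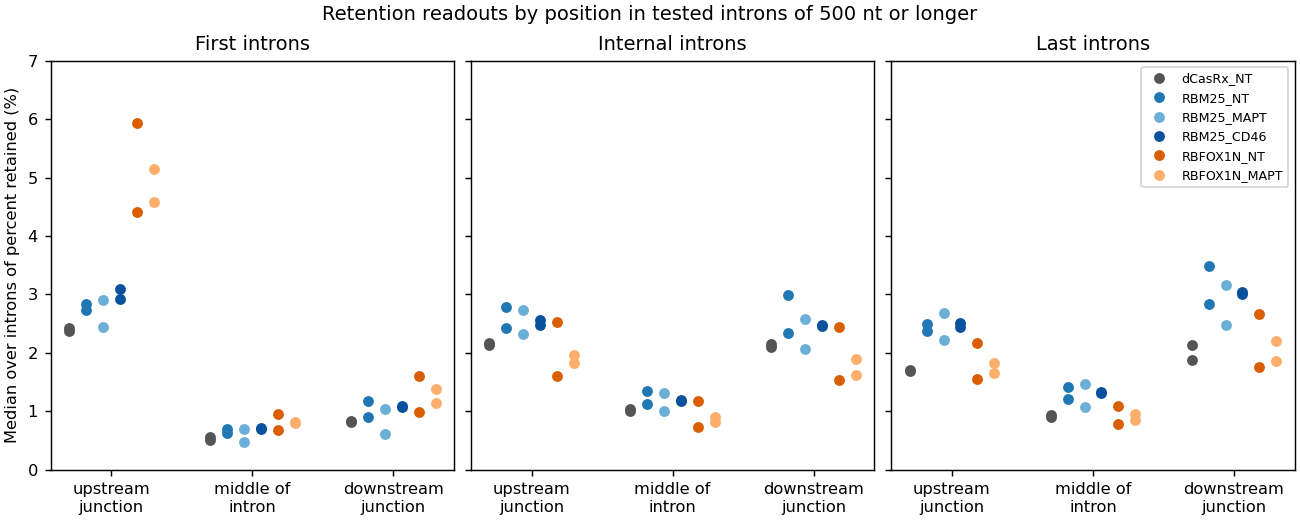
Median over tested introns of the percentage at the upstream junction, in the middle of the intron and at the downstream junction (vertical axis, %), for first, internal and last introns in 3 panels, with 1 point for each library and a colour for each group. At the upstream junction of first introns the 4 libraries labelled RBFOX1N lie at 4.41 to 5.95%, above the other 8.

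The 118 called first introns showed the same shape one by one. Their median difference from dCasRx_NT was 24 points at the upstream junction, 2.50 points in the middle (111 introns with a usable middle) and 1.16 points at the downstream junction. A difference of at least 10 points was found at the upstream junction alone in 79, at both junctions in 34 and at the downstream junction alone in 5. The percent retained of those 79 thus averages an upstream end that rose by at least 10 points with a downstream end that did not. Scaled to library size, the reads at the upstream junction of the 118 rose by a median of 3.21 on the log2 scale. Their spliced junction fell by a median of 0.27 and was lower in 90. Over all 2769 first introns tested, these medians were 0.52 upstream and -0.06 for the spliced junction, which was lower in 1564. The 55 called internal introns had medians of 18.4 points upstream, 7.70 in the middle and 15.9 downstream. Of them, 29 differed by at least 10 points at both junctions, 17 at the upstream junction alone and 9 at the downstream junction alone. These splits are descriptions, since the calls rest on the same junction reads. The middle reads are not used by the calls, but their percentage shares the spliced reads with them.

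**Figure D3:**
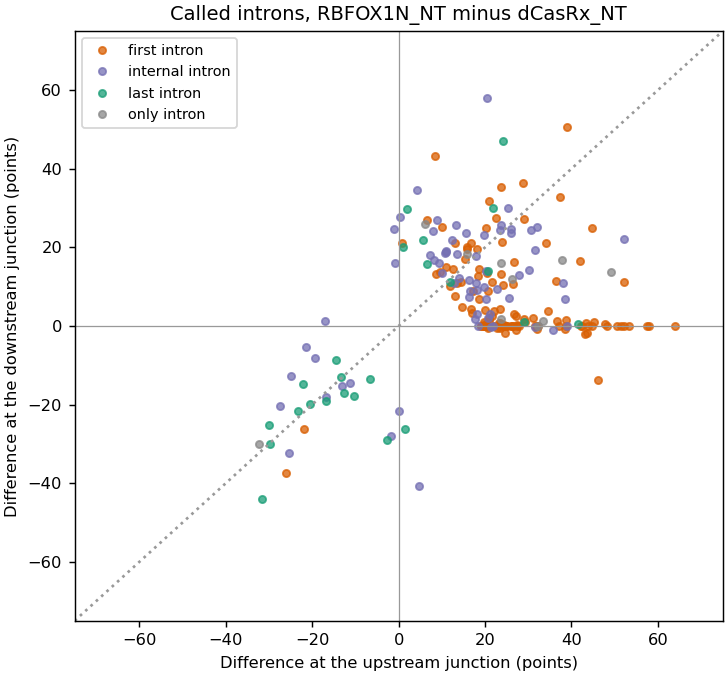
Difference at the upstream junction (horizontal axis, points) and at the downstream junction (vertical axis, points), RBFOX1N_NT minus dCasRx_NT, for the 192 introns called higher and the 29 called lower, coloured by position in the transcript. Most first introns lie along the line of no downstream difference, and most introns called lower lie near the dotted line of equal differences.

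APPBP2, an adaptor protein of a ubiquitin ligase, differed at the upstream end alone. Its first intron (chr17:60500488-60525793, 25306 nt, coding region) was retained at 0 and 1.64% in dCasRx_NT, 0.73 and 1.73% in RBM25_NT, 0.80 and 2.36% in RBM25_MAPT, 5.71 and 7.26% in RBM25_CD46, 40.3 and 44.9% in RBFOX1N_NT, and 53.1 and 42.2% in RBFOX1N_MAPT. The 4 RBFOX1N libraries stood far above the other 8. The difference from dCasRx_NT was 41.7 ± 3.40 points (SE; adjusted p = 6.24e-05). At the upstream junction the mean rose from 1.61 to 59.7%, while the middle had at most 0.292% in dCasRx_NT, RBM25_NT and RBFOX1N_NT and the downstream junction stood at 0 in all 3.

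Other long first introns had the same profile. The first intron of C17orf53 (chr17:44142146-44145202, 3057 nt), a gene of homologous recombination, was at 0.69 and 6.45% in dCasRx_NT and at 41.5 and 53.7% in RBFOX1N_NT, with 64.3% upstream and 0 downstream in the latter. The first intron of THOC2 (chrX:123712909-123732951, 20043 nt), a subunit of the complex that couples transcription to mRNA export, had 0% in both dCasRx_NT libraries, 0.58 to 4.29% in the RBM25 libraries, 27.6 and 36.3% in RBFOX1N_NT, and 29.8 and 34.1% in RBFOX1N_MAPT (difference from dCasRx_NT 31.9 ± 3.38 points, adjusted p = 0.000148). Its upstream junction reached 48.3% with 1.32% in the middle. RSF1, a chromatin remodelling subunit (chr11:77764690-77820527, 55838 nt), went from 2.33 and 9.09% in dCasRx_NT to 46.9 and 44.7% in RBFOX1N_NT. RAB3GAP2, the regulatory subunit of a Rab GTPase-activating complex (chr1:220232864-220272222, 39359 nt), went from 4.11 and 0.56% to 39.0 and 42.5%. In both, all downstream means were 0. In ATXN2, an RNA-binding protein (chr12:111555920-111598783, 42864 nt), percent retained was 2.08 and 1.5% in dCasRx_NT and 48.2% in both RBFOX1N_NT libraries. Its middle stood at 80.7 to 86.9% in dCasRx_NT, RBM25_NT and RBFOX1N_NT alike, so there the middle carries reads in every group.

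In a second set, reads rose through the whole intron. The 5′ UTR intron of KMT5C, a histone methyltransferase (chr19:55339958-55341793, 1836 nt, first), was at 6.44 and 6.16% in dCasRx_NT, 5.15 to 9.64% in the 6 RBM25 libraries, 41.1 and 47.4% in RBFOX1N_NT, and 46.5 and 44.1% in RBFOX1N_MAPT (difference from dCasRx_NT 37.9 ± 2.21 points, adjusted p = 1.35e-06). Its upstream mean rose from 10.1 to 54.8%, its middle from 1.40 to 15.1% and its downstream mean from 2.13 to 27.2%. CNOT3, a subunit of the complex that shortens poly(A) tails (chr19:54137994-54142928, first, 5′ UTR), went from 10.3 and 6.91% to 43.2 and 43.8%, with the middle at 2.92 and 16.4%. CCNG2, an atypical cyclin, carried the change in its second intron, also in the 5′ UTR (chr4:77157507-77158532). It stood at 5.51 and 4.75% in dCasRx_NT and at 39.8 and 49.8% in RBFOX1N_NT (39.7 ± 2.65 points, adjusted p = 1.65e-05). The last intron of CCNG2 was called lower in the same comparison, with a difference of -10.05 points. In PRRT2, a presynaptic protein (chr16:29812324-29812989, 666 nt, first, 5′ UTR), the controls were already at 28.6 and 19.6%, and RBFOX1N_NT reached 67.8 and 69.7%. Fitted on the 4 libraries of RBFOX1N_NT and dCasRx_NT alone, 7 long introns were called in all; KMT5C kept its call there and in every other fit that used both junctions, while those of APPBP2, C17orf53, THOC2, RSF1, RAB3GAP2, ATXN2, CNOT3, CCNG2 and PRRT2 were lost. The call of ATXN2 was also lost without dCasRx_NT replicate 2 and that of RSF1 without dCasRx_NT replicate 1, and limma did not call C17orf53.

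**Figure D4:**
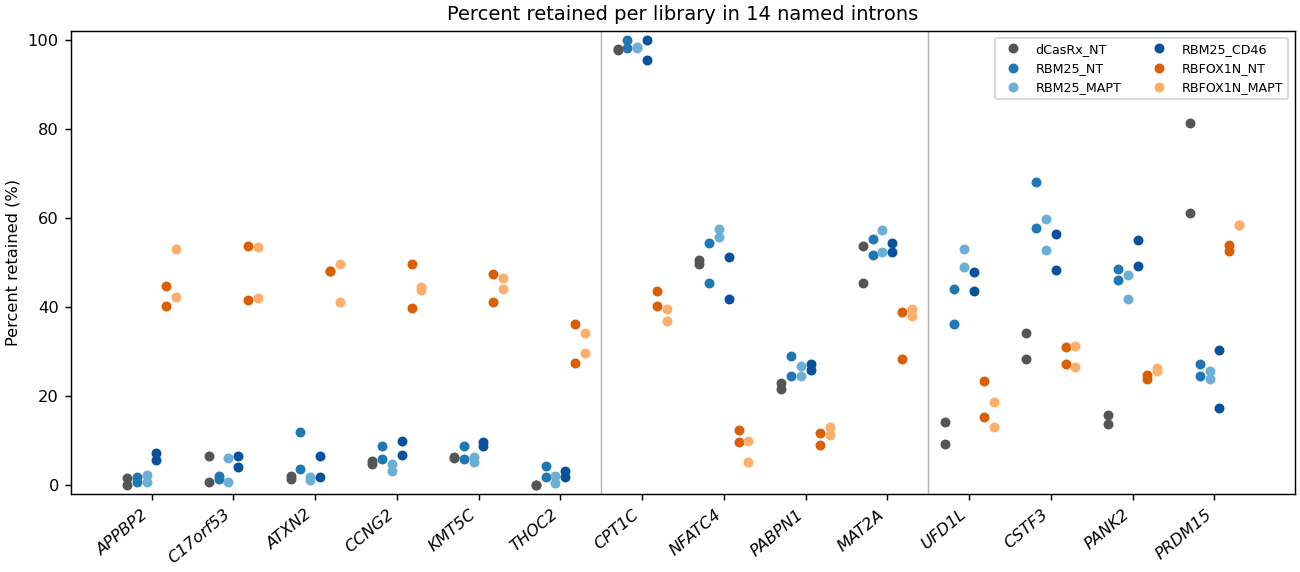
Percent retained (vertical axis, %) in 1 named intron of each of 14 genes, with 1 point for each library and a colour for each group. From left to right, the vertical lines separate introns that rose in the libraries labelled RBFOX1N (APPBP2 to THOC2), introns that fell there (CPT1C to MAT2A), and introns called in RBM25_NT against dCasRx_NT (UFD1L to PRDM15).

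The 29 introns that were lower in RBFOX1N_NT than in dCasRx_NT held few first introns. There were 14 last, 12 internal and 2 first introns among them, and 20 of the 29 had an annotated transcript end inside (69%, against 32.3% of those tested). The count of 29 fell to 18 without dCasRx_NT replicate 1, 10 without dCasRx_NT replicate 2, 13 without RBFOX1N_NT replicate 1 and 15 without RBFOX1N_NT replicate 2, and limma called 4. Their medians were -17.0 points upstream, -14.6 in the middle and -19.9 downstream. Each percentage is taken against the spliced reads, on which the calls also rest, so the middle is not a separate check here. Scaled to library size, the spliced junction rose by a median of 1.04 on the log2 scale. The intron reads changed by medians of -0.25 upstream, -0.48 in the middle and -0.42 downstream. Spliced reads were lower in 0 of the 29, beside 8072 of the 16423 tested long introns, but the calls themselves rest on those reads.

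CPT1C, the brain isoform of carnitine palmitoyltransferase, had the largest fall. Its intron 17 of 19 (chr19:49711962-49712735, 774 nt, coding region) was at 97.8 and 98.1% in dCasRx_NT, 95.5 to 100% in the 6 RBM25 libraries, 40.3 and 43.6% in RBFOX1N_NT, and 37.0 and 39.6% in RBFOX1N_MAPT. The 8 other libraries were all above the 4 labelled RBFOX1N, and the difference from dCasRx_NT was -56.0 ± 3.44 points (adjusted p = 5.94e-06). The high level came from the downstream end and the middle, at 99.0 and 76.6% in dCasRx_NT against 58.3 and 9.48% in RBFOX1N_NT, while the upstream difference was 4.67 points. Counts of the CPT1C gene rose (log2 fold change 2.11, edgeR adjusted p = 1.56e-06), and whether this bears on its percent retained was not tested. NFATC4, a transcription factor activated by calcineurin, lost reads along its whole last intron (chr14:24376879-24377637, 759 nt). Percent retained was 49.8 and 50.7% in dCasRx_NT, 41.8 to 57.6% in the RBM25 libraries, 9.77 and 12.5% in RBFOX1N_NT, and 9.82 and 5.17% in RBFOX1N_MAPT (difference from dCasRx_NT -39.1 ± 3.97 points, adjusted p = 5.79e-05). Its middle went from 36.4 to 5.87%. GABBR1, a subunit of the GABA-B receptor, was lower in intron 4 (chr6:29629108-29630457), at 60.3 and 74.4% in dCasRx_NT and 29 and 29.5% in RBFOX1N_NT. Another internal intron of GABBR1 was called higher in the same comparison, by 20.25 points. CPT1C and NFATC4 kept their calls in every fit that used both junctions. When RBFOX1N_NT and dCasRx_NT were fitted alone, they were the 2 long introns called lower. Intron 4 of GABBR1 lost its call there, under limma, with no minimum of inclusion reads, and without dCasRx_NT replicate 2 or RBFOX1N_NT replicate 2.

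Among 28 genes known for regulated or detained introns, which stay in nuclear, polyadenylated RNA, 26 had tested long introns, 91 in all. Against dCasRx_NT, 0 were higher and 3 lower in RBFOX1N_NT, where 1.14% of all events were called, with a median difference of -0.45 points beside -0.03 over all long introns. In RBM25_NT against dCasRx_NT, where 0.732% of all events were called, 1 was higher (CCNL1) and 1 was lower (TIA1). In RBM25_NT against RBFOX1N_NT, 7 were called higher in RBM25_NT and 0 lower, where 1.67% of all events were called. The median was 0.88 points beside 0.31, and with no limit on the difference 13 were higher and 2 lower. With the MAPT guide, 5 were called higher in RBM25_MAPT than in RBFOX1N_MAPT and 0 lower (median 0.58 points beside 0.25). There 1.84% of all events were called, and with no limit on the difference 7 were higher and 3 lower.

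The 3 lower introns were in PABPN1, MAT2A and CCNL2. The last intron of PABPN1, the nuclear poly(A)-binding protein (chr14:23324290-23325246, 957 nt), was at 22.9 and 21.6% in dCasRx_NT, 24.6 to 29.1% in the RBM25 libraries, 8.92 and 11.8% in RBFOX1N_NT, and 13.1 and 11.4% in RBFOX1N_MAPT (-11.9 ± 1.60 points from dCasRx_NT, adjusted p = 0.000673). The last intron of MAT2A, which makes the methyl donor S-adenosylmethionine (chr2:85543035-85543669, 635 nt), was at 45.5 and 53.7% in dCasRx_NT and at 28.4 and 38.9% in RBFOX1N_NT (-15.9 ± 3.04 points, adjusted p = 0.0126). Intron 5 of CCNL2, an L-type cyclin, was at 74.8 and 84.0% in dCasRx_NT and at 54.9 and 64.3% in RBFOX1N_NT (adjusted p = 0.0302). Of these, limma and the fit on the 2 groups alone called 0, and the calls of MAT2A and CCNL2 were also lost without dCasRx_NT replicate 2 or RBFOX1N_NT replicate 1. CCNL2 also lost its call without RBFOX1N_NT replicate 2. Another 4 introns of this list were called between RBM25_NT and RBFOX1N_NT and not against dCasRx_NT. They were in LUC7L (U1-associated), ARGLU1, and the RNA helicases DDX5 and DDX17, and all 4 lost their call under limma and without RBM25_NT replicate 1 or RBFOX1N_NT replicate 1. In LUC7L, intron 1 was at 32.4 and 26.5% in RBM25_NT, 10.5 and 15.9% in RBFOX1N_NT, and 23.5 and 27.5% in dCasRx_NT. In ARGLU1, intron 2 was at 49.6 and 37.7% in RBM25_NT, 22.5 and 31.5% in RBFOX1N_NT, and 34.4 and 30.7% in dCasRx_NT.

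Other lists of splicing factors were also counted, each holding 12 to 108 tested long introns. In RBFOX1N_NT against dCasRx_NT, where 1.14% of all events were called, lists of this size give too few calls for a share to be read. Of 52 long introns in SR and TRA2 genes and 31 in SR kinase genes, 0 were called in any of the 4 comparisons between effectors. Likewise, 0 of 18 introns in minor spliceosome genes and 0 of 12 in RBFOX, MBNL, CELF and QKI genes were called. In hnRNP and PTB genes, 2 of 108 were higher in RBFOX1N_NT than in dCasRx_NT, both first introns. The first intron of PTBP2, the neuronal PTB protein, had 0 and 0.83% in dCasRx_NT and 18 and 38.4% in RBFOX1N_NT, and that of HNRNPH3 had 1.35 and 1.09% and 10.6 and 20.2%. The RBFOX1N_NT replicates were far apart in both, and both calls were lost without replicate 2 of that group. Of 79 introns in genes for branch point and 3′ splice site factors, 1 was higher, intron 12 of RBM10 (chrX:47180507-47181214), at 4.04 and 3.86% in dCasRx_NT, 4.41 to 7.98% in the RBM25 libraries, 16.7 and 21.4% in RBFOX1N_NT, and 23.5 and 20.3% in RBFOX1N_MAPT. Of 57 introns in genes of U1 snRNP and factors that work with RBM25, 0 were called in RBFOX1N_NT against dCasRx_NT. In RBM25_NT against RBFOX1N_NT, where 1.67% of all events were called, 2 were higher (LUC7L and DDX5) and 1 was lower (RBM25 itself). The RBM25 value includes spliced reads of the effector and does not measure the endogenous gene. In RBM25_NT against dCasRx_NT, 0 were higher and 1 was lower. Of 72 introns in genes of nuclear export and RNA surveillance, 1 was higher in RBFOX1N_NT than in dCasRx_NT (THOC2) and 1 lower (PABPN1). Of 60 introns in nonsense-mediated decay and exon junction genes, 1 was lower, intron 13 of SMG1, a kinase of that pathway, at 21.6 and 26.2% in dCasRx_NT and 9.11 and 8.23% in RBFOX1N_NT (adjusted p = 0.0162). The calls of PTBP2, HNRNPH3, RBM10 and SMG1 were lost in the fit on the 2 groups alone, and that of SMG1 also under limma, with no minimum of inclusion reads, and without dCasRx_NT replicate 2 or either RBFOX1N_NT replicate.

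RBM25 changed fewer long introns. Against dCasRx_NT, 43 were higher and 12 lower in RBM25_NT, 0.335% of those tested, beside 0.732% of all events called (0.289% higher and 0.443% lower). First introns were 8 of the 43, internal introns 19 and last introns 14 (32.6%, against 16.5% of those tested). An annotated transcript end lay inside 21 of the 43 (48.8%, against 32.3%). The median difference of the 43 was 15.3 points upstream, 6.56 in the middle and 13.3 downstream. Leaving out dCasRx_NT replicate 2 left 12 higher and 5 lower, leaving out dCasRx_NT replicate 1 left 14 and 6, and leaving out RBM25_NT replicate 1 left 18 and 8. Without RBM25_NT replicate 2 there were 47 and 4.

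UFD1L, a factor in the turnover of ubiquitinated proteins, rose in its last intron (chr22:19450745-19454748, 4004 nt). It was at 9.24 and 14.3% in dCasRx_NT, 44.0 and 36.1% in RBM25_NT, 49.1 and 53% in RBM25_MAPT, 43.7 and 48.0% in RBM25_CD46, 15.3 and 23.5% in RBFOX1N_NT, and 13.0 and 18.6% in RBFOX1N_MAPT. All 6 RBM25 libraries were above the other 6 (28.3 ± 4.18 points from dCasRx_NT, adjusted p = 0.00574), and its middle rose from 24.2 to 52.3%. CSTF3, a subunit of the factor that stimulates mRNA cleavage before polyadenylation, was higher in intron 4 (chr11:33108419-33141666, 33248 nt). It was at 28.3 and 34.3% in dCasRx_NT, 68.0 and 57.9% in RBM25_NT, 48.4 to 59.8% in the other RBM25 libraries, and 26.5 to 31.2% in those labelled RBFOX1N (31.7 ± 4.39 points from dCasRx_NT, adjusted p = 0.00259). Its reads lay at the upstream end, at 54.9% in dCasRx_NT and 81.9% in RBM25_NT, with 0 downstream. PANK2, a pantothenate kinase, had 15.8 and 13.8% in dCasRx_NT and 48.6 and 46.0% in RBM25_NT in its second intron (chr20:3908279-3910576), while RBFOX1N_NT had 24.8 and 23.9%. CCNL1, the other L-type cyclin of the detained list, went from 5.26 and 5.95% to 15.5 and 16.9% in its last intron (chr3:157148590-157149286; 10.6 ± 1.64 points, adjusted p = 0.00447). The calls of UFD1L and CCNL1 were lost without dCasRx_NT replicate 1, that of CCNL1 also without RBM25_NT replicate 2, and neither limma nor the fit with no minimum of inclusion reads called UFD1L, CSTF3 or CCNL1. The fit on RBM25_NT and dCasRx_NT alone called 0 long introns, so these 3 and PANK2 were all lost there.

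Of the 12 introns lower in RBM25_NT, intron 23 of PRDM15, a zinc finger transcription factor (chr21:41798744-41800183, 3′ UTR), had the largest fall. It was at 81.4 and 61.2% in dCasRx_NT, 24.5 and 27.1% in RBM25_NT, 17.2 to 30.3% in the other RBM25 libraries, and 52.6 to 58.6% in those labelled RBFOX1N (-45.5 ± 7.70 points from dCasRx_NT, adjusted p = 0.0111). POGK, the next, had unlike levels in the groups given RBM25. Its first intron was at 33 and 23% in dCasRx_NT, 0.46 and 2.22% in RBM25_NT and 0.6 and 2.7% in RBM25_CD46, but at 29.2 and 18.2% in RBM25_MAPT, a difference between guides that was not called. TRIP12, a ubiquitin ligase, held introns called in both directions. Intron 5 was higher in RBM25_NT (90.7 and 89.1%, against 56.0 and 61.8% in dCasRx_NT), and intron 17 was lower (58.7 and 50.9%, against 74.8 and 82.7%). The calls of PRDM15, POGK and both TRIP12 introns were each lost without 1 of the dCasRx_NT libraries, with no minimum of inclusion reads and in the fit on RBM25_NT and dCasRx_NT alone. The first 2 and TRIP12 intron 17 were also lost under limma, which like the latter 2 fits called 0 long introns lower. In RBM25 itself, intron 10 stood at 0.05 to 0.07% in the RBM25 libraries and at 5.45 to 22.1% elsewhere. Spliced reads there include those of the effector's own RBM25 sequence, so this value does not measure the endogenous gene.

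The difference between the effectors could be measured in 2 sets of libraries with none in common, since both effectors were given both the nontargeting and the MAPT guide. This holds for the differences in points. The calls are not separate, because the same fit and the same read limits over all 12 libraries served both sets. With the nontargeting guide, 104 long introns were higher in RBM25_NT and 194 higher in RBFOX1N_NT, 1.81% of those tested beside 1.67% of all events (0.693% higher and 0.974% lower in RBM25_NT). With the MAPT guide, 109 were higher in RBM25_MAPT and 208 in RBFOX1N_MAPT, 1.93% beside 1.84% (0.858% higher and 0.981% lower in RBM25_MAPT). Without any 1 library the first of these comparisons called 147 to 230 in all and the second 165 to 207. The balance in the first moved with the library left out: 39 were higher in RBM25_NT and 133 in RBFOX1N_NT without RBM25_NT replicate 1, 108 and 110 without RBM25_NT replicate 2, 34 and 196 without RBFOX1N_NT replicate 1, and 54 and 93 without RBFOX1N_NT replicate 2. Limma called 8 and 73. The lists from all libraries shared 197 introns, 66.1% of the first and 62.1% of the second, and all 197 had the same direction, 138 higher with RBFOX1N and 59 higher with RBM25. Of the 298 introns called with the nontargeting guide, 296 had the same sign with the MAPT guide, and their median size went from 16.6 to 14.8 points. Across these 298 introns the differences gave r = 0.938, and across all 16423 it was 0.713. Introns of a library share its depth and are not replicates. First introns were 114 of the 194 and 125 of the 208 that were higher with RBFOX1N (58.8 and 60.1%), and without RBM25_NT replicate 1 or RBFOX1N_NT replicate 2, when 133 and 93 were higher in RBFOX1N_NT, they were 82 and 61. They were 11 of 104 and 9 of 109 of those higher with RBM25. Last introns were 35 of 104 and 39 of 109 of those higher with RBM25. A test of whether the effector difference depended on the guide called 0 introns, with 258 (1.57%) at an unadjusted p under 0.05 and a smallest adjusted p of 0.623.

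**Figure D5:**
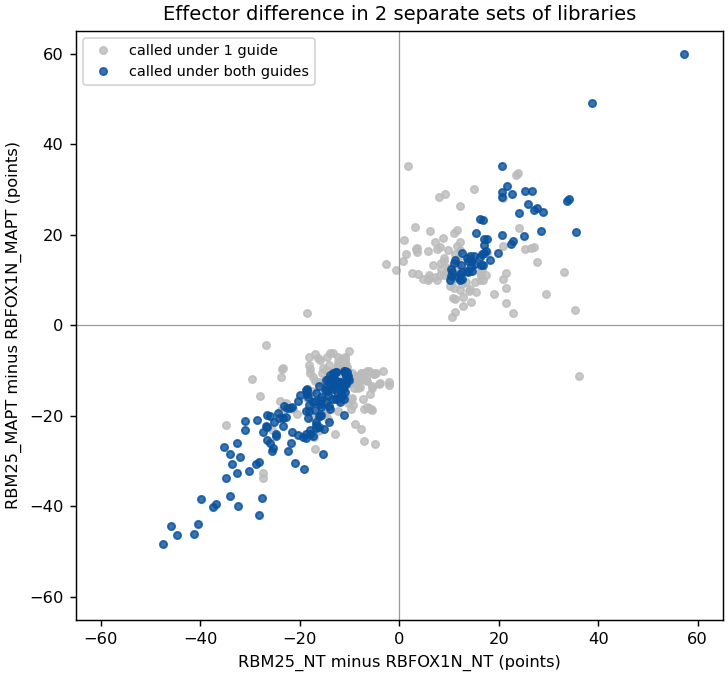
Difference in percent retained between the effectors with the nontargeting guide (horizontal axis, RBM25_NT minus RBFOX1N_NT, points) and with the MAPT guide (vertical axis, RBM25_MAPT minus RBFOX1N_MAPT, points) in introns called with at least 1 of the guides. The 197 called with both guides (blue) lie in the lower left and upper right of the plot.

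The guide itself gave no called long intron. RBM25_MAPT against RBM25_NT, RBM25_CD46 against RBM25_NT and RBFOX1N_MAPT against RBFOX1N_NT each had 0 calls by the quasi-binomial test and 0 by limma. At an unadjusted p under 0.05 there were 329, 282 and 330 long introns (2.00, 1.72 and 2.01% of those tested). Of all events, 0.000996, 0 and 0% were called. CD46, whose exon 13 was targeted, had 4 long introns tested and 0 called in any comparison. Its intron 12 (chr1:207785683-207790252) was at 3.82 and 2.39% in RBM25_CD46, 1.32 and 0.84% in RBM25_NT, and 0.73 to 2.59% in the other libraries. No long intron of MAPT passed the read limits, so retention there was not analysed here.

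Gene counts of the host genes were tested with edgeR in a fit over 20593 genes, of which 10.8% changed between RBFOX1N_NT and dCasRx_NT. Among 7269 tested genes that hold a member, 631 rose and 152 fell. Among the 185 genes with an intron called higher, 45 rose and 4 fell, with a median log2 fold change of 0.16 beside 0.02 over the 7269. The gene counts include reads of the gene's exons whether or not an intron is retained. In RBM25_NT against dCasRx_NT, where 7.62% of genes changed, 7 of the 42 host genes of introns called higher rose and 5 fell.

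The last 60 exon bases before the intron were read from GENCODE 29 transcripts. Their median G+C content was 70% in 117 of the 118 called first introns and 66.7% in 2726 of the 2769 first introns tested. The RBFOX hexamer TGCATG, searched on both strands, was found in this window for 3 of 187 introns called higher in RBFOX1N_NT (1.60%) and for 2.58% of all tested long introns with sequence, and on the transcribed sequence alone for 2 (1.07%) and 1.18%. In the first 60 bases after the intron it was found in 2 of 181 (1.10%), against 2.68%, and on the transcribed sequence alone in 1 (0.552%), against 1.26%. These counts are too small to compare. CGGGCA, the exonic element known for RBM25, was found before the intron in 0 of 39 introns called higher in RBM25_NT and in 3.29% of all. After the intron it was found in 1 of 42 (2.38%), against 2.77%, and on the transcribed sequence alone in 1 (2.38%), against 1.33%. These counts, too, are too small to compare. Intron sequence was covered by annotated exons for too few introns (22.7% for the first 300 bases) to be compared.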

How the data were processed

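Splicing was measured in 12 libraries. The authors' deposited table gives percent values of inclusion and, in each quality field, the corrected read counts behind them; its layout is that of vast-tools, whose version was not stated in what was read here. The submitters' processing notes name STAR 2.7.10, edgeR and hg38. Gene counts were used as deposited. The junction order was checked on introns that an annotated exon enters from 1 side. The quasi-binomial model had 6 group means, dispersions moderated with 9.91 prior degrees of freedom and a floor of 1. Events needed 20 reads in each library and 24 inclusion and 24 exclusion reads in all. It was tested on simulated data with known differences, as was edgeR 4.0.16 (quasi-likelihood, TMM). Alternatives were limma 3.58.1 on logit values, DESeq2 1.42.0, other minimums, single junctions, pooled guides, a replicate block and leaving out libraries. P-values rest on the spread between 2 replicates per group, pooled over the 6 groups and moderated towards that of the other events. They do not measure the spread within the 2 groups compared alone. Named introns were, in each comparison, up to 10 called with the largest rise and 10 with the largest fall whose groups did not overlap, all called introns of the fixed lists, and CD46; the text gives a choice of these and counts of the rest. The members and lists were chosen with earlier results of these data known. Introns were placed on GENCODE 29, by the basic, coding transcript with the most introns; 28629 of 28635 matched. Correct placement, and so first or last, depends on that transcript.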

Additional observations from a re-analysis of the deposited data

How the results depend on the processing

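In none of the alternatives that used both junctions did a called intron chosen by the naming rule change direction, but many fell below the threshold: of 151 such calls, limma on logit values lost 103, a fit on the 2 groups compared 85, and no minimum of inclusion reads 81. For RBFOX1N_NT against dCasRx_NT (221 long introns called), limma called 103, no minimum 80, balanced introns only 43, the 2 groups alone 7, downstream reads only 91 and middle reads only 30. For RBM25_NT against dCasRx_NT (55) these were 7, 4, 12, 0, 28 and 1, and a limit of 5 points gave 94. For RBM25_NT against RBFOX1N_NT (298) they were 81, 142, 63, 167, 146 and 44, with 490 at 5 points and 508 with guides pooled. For RBM25_MAPT against RBFOX1N_MAPT (317) they were 98, 144, 76, 152, 144 and 50, with 492 at 5 points. Without 1 replicate, where the lone sample of a group is assumed to vary like the others, the counts ran from 89 to 196, from 17 to 51, from 147 to 230 and from 165 to 207 in that order. Fewer samples or fewer introns enter these fits; otherwise the cause was not tested. The fits on 1 kind of read were chosen after the data were seen: downstream reads alone gave the opposite sign in 20 of 138 such calls, and middle reads alone in 15 of 135. The 3 guide comparisons gave 0 in every setting run for them, which did not include single kinds of read.

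Replicate numbers did not pair the samples in percent values (r of the replicate differences between groups from -0.032 to 0.032 over 15 pairs of groups). This does not hold for gene counts, where r ran from -0.165 to 0.416, with 4 pairs over 0.1. With the number as a replicate block the counts were 188, 46, 267 and 287, and it ended 12 of the 151 calls, while the host gene counts given next rose to 783, 1051 and 1484. For host genes, 549 changed in RBM25_NT against dCasRx_NT, 894 with no filter on low counts and 117 to 584 without 1 replicate. For RBFOX1N_NT against dCasRx_NT there were 783, and 209 to 986 without 1 replicate. For RBM25_NT against RBFOX1N_NT there were 1189, and 454 to 933, and no filter turned 532 higher and 657 lower into 733 and 559. The median member had 5.68 inclusion reads in a library, which limits the precision of low percentages.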
